A study of Mus musculus with 6 samples.

Results

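Of the 517 Bloodlinc pulldown peaks, 204 overlapped a peak of the odd probe pool by at least 1 bp and overlapped no peak of the even probe pool. They are called the odd-only peaks here. They were chosen by these overlaps alone, and they made up 39.5% of the pulldown list (95% interval 35.2% to 43.8%). A further 267 pulldown peaks met both pools, 44 met an even peak only and 2 met neither. Each interval printed beside a share is an exact binomial (Clopper-Pearson) interval and covers the counting of peaks in these libraries only. None of the odd-only peaks overlapped the 268 consensus regions of the series, which is fixed by the rule.

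Bloodlinc, also named alncRNA-EC7, is a long noncoding RNA made from a super-enhancer in red cell precursors. It was mapped in MEL, a line of mouse erythroleukaemia cells that grow as immature erythroid precursors and turn on haemoglobin genes when dimethyl sulfoxide (DMSO) is added. All 6 libraries are labelled as MEL cells on day 5 of treatment with 2% DMSO, although peak names in the input list carry the tag MELd0. They comprise the pulldown, whose label names no pool, 1 library for each of the even and odd pools, and 3 controls (no probes, RNase, and input chromatin). Each condition has 1 library, so no difference between conditions could be tested, and the values are descriptions of these lists.

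In ChIRP-seq (chromatin isolation by RNA purification), biotinylated DNA oligonucleotides that tile an RNA are used to draw it out of crosslinked chromatin, and the DNA that comes along is sequenced. The probes are split into an even and an odd pool that share no oligonucleotide, and sites found with both pools are usually the ones kept. The odd-only peaks are the larger of the 2 sets of pulldown peaks that met a single pool. The sources used here leave unstated whether the pulldown was a capture of its own or reads of both pools put together, so its peaks cannot be taken as separate from those of either pool.

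The lists hold peak positions and a whole-number score from the authors on an unstated scale, so scores were compared within a list only. The read depth is unknown. Positions are in the mouse build mm9 and count from 1. No mm9 gene annotation or sequence was used here, so genes and sequences at these sites are not named.

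The highest-scoring odd-only peak lay on chromosome 16 at 56017383 to 56018110. Its pulldown score of 2840 ranked 3 in the list of 517, behind a pair of peaks that met both pools, with scores of 4188 (chromosome 11, 102233495 to 102238439) and 3081 (chromosome 12, 83663819 to 83664657). The odd partner at this site spanned 56017379 to 56018120, contained the whole pulldown peak, and ranked 36 of 20596 odd peaks with a score of 4333. The nearest even peak was 19.7 kb away and ranked 10075 of 18114 in the even list. High pulldown and odd scores thus stood here with no listed even peak at the site.

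The next highest, on chromosome 8 at 71596013 to 71596615 (pulldown score 1587, rank 8), had the highest-scoring of all odd peaks as its partner, with an odd score of 5608. Its nearest even peak was 188.1 kb away. The peak on chromosome 1 at 166135651 to 166136298 (pulldown score 1475, rank 11) had the odd peak of rank 2 as its partner, with an odd score of 5552 and an even peak no nearer than 55.9 kb. The 2 highest odd peaks were thus both at odd-only sites, and 7 of the 10 highest odd peaks were partners of odd-only peaks. Further down the odd list this share fell, to 45% of the 100 highest and 24.2% of the 500 highest.

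Of the other 7 among the 10 highest odd-only peaks, the one on chromosome 10 at 127044880 to 127045946 was the widest odd-only peak, at 1067 bp, and the only one on its chromosome. Its pulldown score was 1279 and its odd partner ranked 4 with a score of 5128. The peak on chromosome 11 at 20270561 to 20271207 had a pulldown score of 1276 and an odd partner of rank 5, with a score of 5008. The remaining 5 had odd partners between rank 53 and rank 777. They were at 57108386 to 57109100 on chromosome 7 (pulldown score 1489), 127694163 to 127694755 on chromosome X (1393), 13699780 to 13700393 on chromosome 9 (1303), 28187454 to 28188077 on chromosome 2 (1254) and 131874748 to 131875336 on chromosome 4 (1245). At the last of these, the nearest even peak was 56.8 kb away and was itself strong, with rank 143 in the even list. That even peak belonged to another pulldown peak, at 131817512 to 131817961, which met both pools.

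In pulldown score, the odd-only peaks covered nearly the whole range of the list. Their scores ran from 643 (chromosome 15, 37016731 to 37017277, rank 510) to 2840, with a median of 838.5 and quartiles of 779 and 930. The peaks that met both pools had a median of 825 (quartiles 744 and 934.5), and those with an even partner only had a median of 771.5 (721.8 and 839.8). The median rank was 235 for odd-only peaks, 258 for peaks with both partners and 362.5 for even-only peaks. The ranges of the 3 classes overlapped. Odd-only peaks were 42.4% of the upper tercile of the pulldown list by score, 43.6% of the middle tercile and 32.4% of the lower (25.5% to 39.9%). Even-only peaks were 5.81%, 5.23% and 14.5% of the same terciles, so the lower tercile held relatively more of them.

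The classes parted by the rank of the odd partner. Each odd-only peak had exactly 1 odd partner. The partners ranked between 1 and 3991 of 20596, with a median of 372.5 (quartiles 120.8 and 857.8). The odd partners of peaks with both partners ranked between 3 and 20275, with a median of 7102 (3232 and 11633). Of the odd-only peaks, 45 had a partner among the 100 highest odd peaks, 121 among the 500 highest and 160 among the 1000 highest. For peaks with both partners these counts were 3, 9 and 13. The lists were intersected without use of rank, but the pulldown list is itself a selected part of peaks numbered up to 27800 and may hold the odd reads, so these ranks are a description.

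Split by deciles of odd score, the contrast was nearly complete. Among the 471 pulldown peaks with any odd partner, 232 (49.3%) had a partner in the top decile, and 199 of these 232 were odd-only (85.8%, 80.6% to 90%). In the odd list as a whole, 17806 of 20596 peaks met no even peak, as did 1972 of its 2059 top-decile peaks. The odd-only share of 85.8% was thus not above the share without an even peak in the top decile of the odd list. In each lower decile of the odd list, 1719 to 1844 of the 2059 or 2060 peaks met no even peak. Among pulldown peaks with a partner in the lower deciles the share was far lower, and this was not tested. There, 5 of 239 were odd-only (2.09%, 0.683% to 4.81%). Those 5 lay on chromosome 1 at 192633227 to 192633752, on chromosome 12 at 56000445 to 56001044 and 119062750 to 119063279, on chromosome 13 at 113313664 to 113314245, and on chromosome 15 at 57483606 to 57484119. Their odd scores were 2602, 2016, 2139, 2467 and 2241 in that order, all within the second decile. No odd-only peak had a partner in deciles 3 to 10.

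Among peaks with both partners, the even partner was usually the higher-ranking one. It had a median rank of 354 of 18114, the top 1.95% of its list, where the odd partner had a median at 34.5% of the odd list (quartiles 15.7% and 56.5%). In 219 of the 517 pulldown peaks the even partner was in the top decile of its list and the odd partner was below it, and in 23 both were in the top decile. Counting either pool, 476 pulldown peaks (92.1%, 89.4% to 94.3%) had a partner in a top decile. The pulldown list was therefore made up largely of these 219 peaks, strong with even probes and with a lower-ranking odd peak, and of a somewhat smaller set. That set held 199 peaks with an odd partner in the top decile and no listed even peak. Even-only peaks had lower-ranking even partners than peaks with both partners. Their median rank was 1655 (9.14% of the even list) against 354 (1.95%), and 25 of the 44 were in the top decile.

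**Figure D1:**
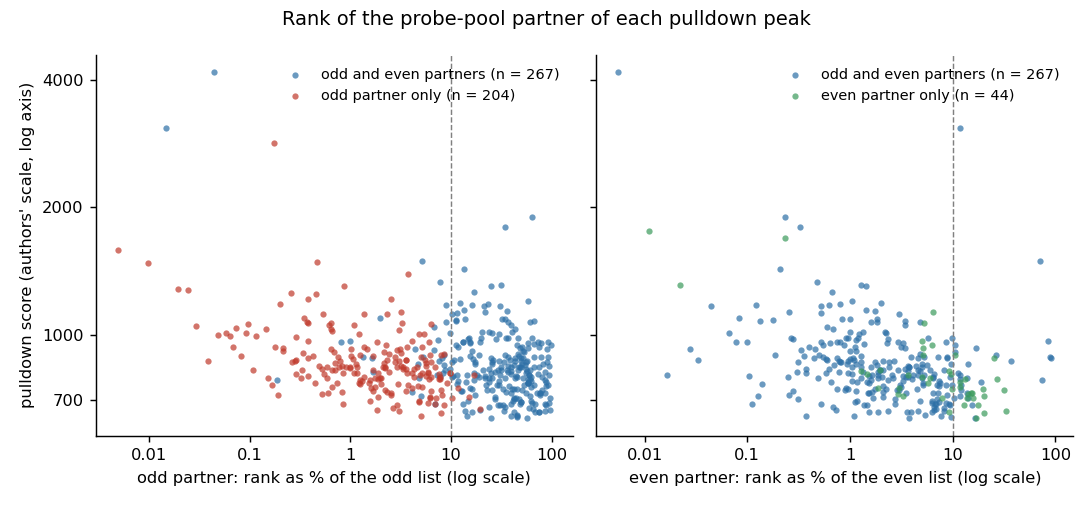
Pulldown score (log axis, authors' scale) of each pulldown peak against the rank of its partner as a percentage of the odd list (left, log axis) or the even list (right, log axis), with 1 point per peak and a dashed line at 10%. Odd-only peaks crowd to the left of the line in the odd panel, 199 of 204, and peaks with both partners lie mostly to its right, while in the even panel most peaks with both partners lie to the left.

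Some peaks outside the rule had an odd partner that ranked far above the even one. In 10 pulldown peaks the odd partner was in the top decile and the even partner was below it, at 11.8% to 91.3% of the even list by rank. At 9083032 to 9083579 on chromosome 15 the odd partner had a score of 3673 and rank 336, and the even partner a score of 664 and rank 16546. At 24172237 to 24172817 on chromosome 5 the odd partner had a score of 3734 and rank 274, and the even partner a score of 690 and rank 16162. These are the shortest even overlaps of any pulldown peak that met both pools, at 368 bp and 352 bp, followed by 390 bp at 131817512 to 131817961 on chromosome 4, where the even partner was the stronger (even rank 143, odd rank 17806). The first 2 even partners were near the end of the even list, whose lowest score was 350.

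Just inside the rule, the shortest overlaps with an odd partner were 374 bp (chromosome 5, 150565275 to 150565648), 388 bp (chromosome 6, 143005466 to 143005924) and 439 bp (chromosome 14, 114198915 to 114199432). Even the least covered odd-only peak had 78.2% of its length within its odd partner. No odd-only peak therefore rested on an overlap of a few bases.

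The odd partners lay centred on the odd-only peaks. The midpoint of the odd partner minus that of the pulldown peak had a median of 2 bp (quartiles -14.4 and 18.1, range -146.5 to 180.5), and 187 of 204 pairs had midpoints within 50 bp (91.7%). Peaks with both partners were centred as closely on their odd partners (88.0% within 50 bp) and on their even partners (87.6%). The plot of cover around pulldown midpoints shows the absence of listed even peaks at the odd-only sites, which the rule itself fixes.

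**Figure D2:**
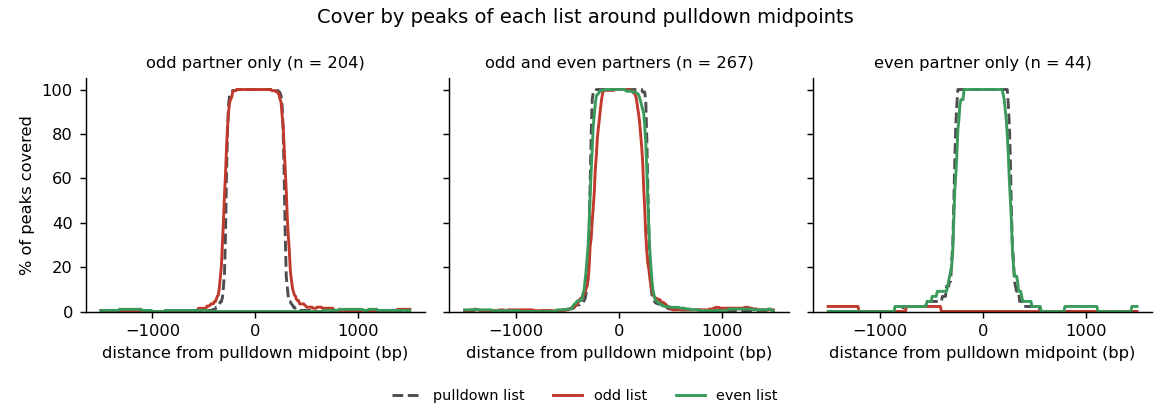
Percentage of pulldown peaks covered by a peak of the pulldown (dashed), odd and even lists at each distance from the pulldown midpoint in bp, for the 204 odd-only peaks, the 267 with both partners and the 44 even-only peaks. The odd curve is wider than the pulldown curve at odd-only peaks and narrower at peaks with both partners.

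Odd-only peaks were of the usual width for the pulldown list, and their odd partners were wide. The pulldown peaks had a median width of 568.5 bp (quartiles 549.8 and 589.2), against 564 bp for peaks with both partners and 558 bp for even-only peaks. The narrowest odd-only peaks were 374 bp, 459 bp and 466 bp wide, the last on chromosome 11 at 78964001 to 78964466. The widest after the peak on chromosome 10 were 837 bp on chromosome 13 (59839334 to 59840170) and 776 bp on chromosome 2 (27724235 to 27725010). Within each tercile of pulldown score the median widths of odd-only peaks and of peaks with both partners were close, at 585 and 578.5 bp in the upper tercile, 568 and 565 bp in the middle and 555.5 and 555 bp in the lower. Median width thus differed more between terciles than between these classes.

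The odd partner had a median width of 602 bp at odd-only peaks and 490 bp at peaks with both partners. It was wider than its pulldown peak at 156 of 204 odd-only peaks (76.5%, 70.0% to 82.1%), against 42.7% of all 471 pulldown peaks with an odd partner. Width and score of the odd partner moved together over the 204 pairs (Spearman's rho 0.413, over peaks that share a library), and odd partners at odd-only peaks had the higher scores. Among pairs whose odd partner was in the top decile, the odd peak was the wider in 153 of 199 odd-only peaks (76.9%, 70.4% to 82.6%) and in 15 of 33 peaks with both partners (45.5%, 28.1% to 63.6%). The median odd widths were then near each other, at 604 and 595 bp, and the pulldown widths were 569 and 581 bp.

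**Figure D3:**
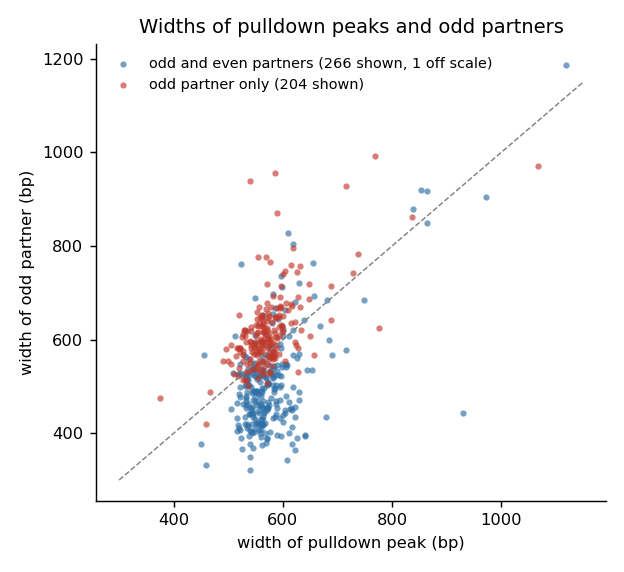
Width of the odd partner against width of the pulldown peak, both in bp, with 1 point per pair and a dashed line of equal width; 1 pair with both partners is off the scale. Most odd-only pairs (156 of 204) lie above the line and most pairs with an even partner lie below it.

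Pulldown score and odd score were positively related over the 204 odd-only pairs, with a Spearman's rho of 0.426 and a Pearson's r of 0.426. Over the 267 peaks with both partners, rho was 0.271 for the odd score and 0.338 for the even score. Over the 44 even-only peaks, rho for the even score was 0.585. These are descriptions over peaks of the same libraries, which may share reads, and peaks are not replicates.

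Within 10 kb, even peaks lay near odd-only peaks about as often as near odd peaks without an even partner as a whole, and within 100 kb somewhat more often. The gap to the nearest even peak ran from 179 bp to 412.8 kb, with a median of 38.0 kb (quartiles 16.7 and 68.8 kb). An even peak lay within 10 kb of 33 odd-only peaks (16.2%, 11.4% to 22.0%), against 17.0% of all 17806 odd peaks without an even partner. Within 1 kb there were 6 (2.94%), against a background of 2.07%, and both shares were near their background. Within 100 kb the share was 85.3% (79.7% to 89.9%) for the odd-only peaks and 78.3% for all odd peaks without an even partner, a difference that was not tested. The 17806 include the odd partners of the odd-only peaks. The gap had no visible relation to the odd score (Spearman's rho -0.0111) or to the pulldown score (-0.0377). For comparison, the 44 even-only peaks had a median gap of 38.1 kb to the nearest odd peak. An odd peak lay within 100 kb of 84.1% of them (69.9% to 93.4%), so the share within 100 kb was not particular to odd-only peaks.

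**Figure D4:**
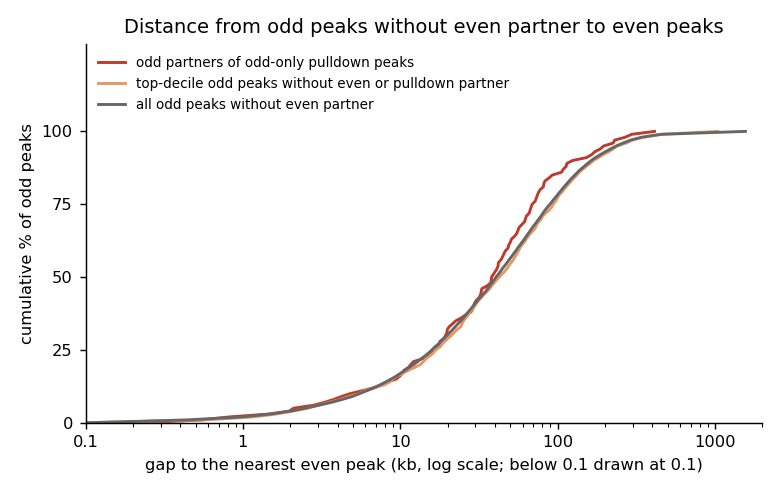
Cumulative percentage of odd peaks against the gap to the nearest even peak in kb (log axis), for the 204 odd partners of odd-only peaks, the 1773 other top-decile odd peaks that met neither list, and all 17806 odd peaks without even partner. The curves lie together up to the median, and above it the odd-only curve runs slightly to the left, with 85.3% within 100 kb against 77.6% and 78.3%.

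The 6 even peaks within 1 kb of an odd-only peak differed in rank. The 5 odd-only peaks nearest to an even peak were on chromosome 17 at 12950037 to 12950607 (gap 179 bp), on chromosome 2 at 157010738 to 157011268 (387 bp), on chromosome 11 at 6079687 to 6080274 (516 bp), on chromosome 9 at 13796795 to 13797419 (688 bp) and on chromosome 15 at 36335144 to 36335771 (791 bp). The even peaks beside them ranked 16396, 11440, 14089, 18077 and 16930 of 18114 in that order. The next, 816 bp from the odd-only peak at 93552120 to 93552684 on chromosome 5, was far stronger, with rank 2632. Over all 204, the nearest even peak was in the top 10% of the even list in 27 cases (13.2%, 8.91% to 18.7%), against 10% (1786 of 17806) of odd peaks without an even partner. At the other end, the odd-only peaks farthest from an even peak were on chromosome X at 72772059 to 72772568 (412.8 kb), on chromosome 3 at 157400872 to 157401459 (370.8 kb) and on chromosome 12 at 56000445 to 56001044 (295.8 kb).

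Peak numbers in the even list bear on whether an even peak was called and then left out. The numbers run to 124782, the list holds 18114 peaks, and numbers rise down the list without exception. If they follow position, a number missing between adjacent even peaks would stand for an even peak numbered there and not listed. Between the even peaks on either side of an odd-only peak, a median of 9 numbers were missing (quartiles 6 and 16) over a median of 168.5 kb. This was near the median of 10 (quartiles 5 and 16) over 203.3 kb for all odd peaks without an even partner. At 2 odd-only peaks none was missing (0.980%, 0.119% to 3.50%), against 2.22% of odd peaks without an even partner that had an even peak on both sides. These were on chromosome 3 at 92630026 to 92630594 (odd score 3774) and on chromosome 9 at 111010198 to 111010757 (odd score 3809), and they were singled out for this after their values were seen. There, as far as the numbers follow position, no even peak of any numbered strength lay at the site. At the other 202, whether an unlisted even peak lay at the site cannot be told from the lists.

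Odd-only peaks lay on 20 chromosomes, all but Y, and most often on chromosome 2, with 23 of 204 (11.3%, 7.28% to 16.4%). That was near its share of the whole pulldown list, 9.9%, and chromosome 2 held 7.69% of the odd list. As a share of the pulldown peaks on a chromosome, they were most frequent on X (13 of 22, 59.1%, 36.4% to 79.3%), 19 (15 of 27, 55.6%, 35.3% to 74.5%) and 7 (11 of 20, 55.0%, 31.5% to 76.9%). They were least frequent on 10 (1 of 14, 7.14%, 0.181% to 33.9%) and 4 (5 of 24, 20.8%, 7.13% to 42.1%). Only the interval of chromosome 10 left out the share of the whole list, 39.5%, and it lay below the intervals of X and 19. These intervals are not adjusted over the chromosomes.

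Against the odd list, chromosome 19 held 7.35% of odd-only peaks (4.17% to 11.8%) and 2.94% of odd peaks, and X held 6.37% (3.44% to 10.6%) and 3.47%. Chromosome 10 held 0.490% of odd-only peaks (0.0124% to 2.70%) and 4.88% of odd peaks, and chromosome 8 held 0.980% (0.119% to 3.50%) and 4.60%. The other strong odd peaks had other proportions, and this difference was not tested. Of the 1773 top-decile odd peaks that met neither an even nor a pulldown peak, 3.16% were on chromosome 19, 4.96% on chromosome 10 and 3.78% on chromosome 8. On chromosomes 19 and 8 the peaks with both partners had shares of 4.12% and 1.5%, and chromosome 15 held 10.1% of them against 7.35% of the odd-only peaks.

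**Figure D5:**
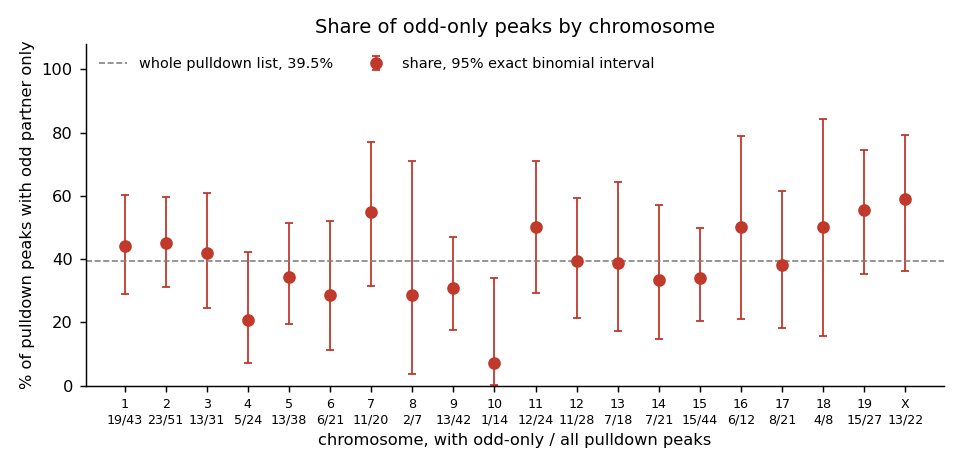
Share of pulldown peaks on each chromosome that were odd-only, in percent, with exact 95% binomial intervals as bars and the whole-list share of 39.5% as a dashed line; chromosome Y, with 1 pulldown peak, is not drawn. Chromosome 10 is lowest at 7.14% and X highest at 59.1%, and most intervals are wide because a chromosome holds 7 to 51 pulldown peaks.

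Chromosome 11 carries the highest-scoring pulldown peak and held 12 odd-only peaks. The nearest of these was 6.04 Mb from the highest-scoring peak and their median distance was 32.8 Mb. The median was 37.6 Mb for the 9 other peaks with both partners on the chromosome and 70.35 Mb for the 2 even-only peaks. Distance from the highest-scoring peak was thus not particular to the odd-only peaks. After the peak at 20270561, the highest were at 43249571 to 43250134 (pulldown score 890, odd score 3653) and at 79462472 to 79463043 (883, odd score 3430). No odd-only peak was within 1 Mb of the highest-scoring peak, where 1 peak with both partners lay at 0.527 Mb.

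Few odd-only peaks had close neighbours. Another pulldown peak lay within 100 kb of 26 of the 204 (12.7%, 8.50% to 18.1%), against 12.2% of the whole pulldown list. The 4 nearest neighbours were all even-only peaks, which make up 44 of the 517. The closest pair was on chromosome 9, where the odd-only peak at 13796795 to 13797419 (pulldown score 935) lay 1523 bp from an even-only peak at 13794716 to 13795271 (806). On chromosome 15 the odd-only peak at 36335144 to 36335771 (1060) lay 4294 bp from an even-only peak at 36340066 to 36340598 (773). The other cases were on chromosome 10, where the widest odd-only peak had an even-only peak 11.5 kb away, and on chromosome 7 at 128102673 to 128103228, with one 11.8 kb away. In each of them a pulldown peak with an odd partner and one with an even partner lay beside each other, not at the same place. These pairs were picked out after their values were seen. The closest odd-only peaks to each other were at 38422109 to 38422695 and 38435505 to 38436070 on chromosome 15, 12.8 kb apart, with pulldown scores of 1051 and 1211.

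No odd-only peak met a peak of a control list. For each of the no-probe, RNase and input lists, the count of 0 of 204 allows a share of up to 1.47% by the limit of 3 counts, or 1.79% by the exact interval. In comparison, 0.387% of all pulldown peaks, 2 of 517, met a control peak. No odd-only peak lay within 10 kb of a control peak either. The nearest case was an RNase peak 18.9 kb from the odd-only peak at 70634448 to 70635023 on chromosome 9, followed by a no-probe peak 24.2 kb from the one at 120306775 to 120307351 on chromosome 1. The control lists are short, with 124, 141 and 270 peaks, and the peaks with both partners met as few of them, 1 of 267.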

How the data were processed

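The 6 mouse libraries, 1 per condition, each gave a deposited peak list without a header. Per the submitters' processing notes, the authors used Bowtie2 and bedtools with build mm9. How peaks were called and selected, and tool versions, are not given in the sources used. The deposited score of each peak was used to rank peaks within its list. Samples were grouped by their titles. Peaks counted as partners with at least 1 bp of overlap, the highest-scoring partner was kept, and gaps count the bases between peak edges. Medians, quartiles and exact 95% binomial intervals came from SciPy 1.17.1, pandas 2.3.3 and numpy 2.4.6 under Python 3.11.15, and plots from matplotlib 3.10.9. No test over peaks was run, since the overlaps chose the members. On simulated data, 100% of 600 peaks got their known class. The members, the summaries and the rule for named regions (the highest by pulldown and odd score, the widest, narrowest, nearest to and farthest from even peaks, the shortest overlaps, the highest on chromosome 11) were chosen with earlier results of these data known. The highest even-only peaks, also in that rule, are given in the closing section. Alternatives varied the overlap, the thresholds, the list size, chromosome 11 and the control peaks.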

Additional observations from a re-analysis of the deposited data

How the results depend on the processing

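The number of odd-only peaks, their median pulldown score, width, gap to even peaks and odd partner rank, and their share on chromosome 2 were recomputed under 8 alternatives. The number was 206 with a reciprocal overlap of 50%, 201 with midpoints within 1 kb, 198 with even peaks widened by 1 kb, 209 with the higher-scoring 50% of the even and odd lists, 204 with the odd list at the size of the even list, 192 without chromosome 11 and 204 without peaks that meet a control peak. All 204 remained under the first, the fourth, the fifth and the last of these. The last 3 of those named could not have removed any, since no odd partner ranked below 3991 and no odd-only peak met a control peak. Leaving out chromosome 11 could only take away its 12 odd-only peaks. With the higher-scoring 50% of the pulldown list there were 114, with a median pulldown score of 918.5, a median width of 575.5 bp and a median odd rank of 215.5, since that setting keeps fewer and stronger peaks. With the higher-scoring 50% of the even and odd lists, which keeps fewer even peaks, the median gap to the nearest even peak was 67.5 kb. Every other median, and the share on chromosome 2, stayed within the exact 95% interval of its main value. The share on chromosome 2 ran from 9.65% to 11.98%. The number of odd-only peaks had no such interval. No paired analysis was possible because each condition has 1 library. The depth is unknown, so weak even signal at a site cannot be told from none.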

Other observations

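Many strong odd peaks without an even partner were in no pulldown peak. Of the 100 highest odd peaks, 95 met no even peak; 45 of these were partners of odd-only peaks and 50 met no listed pulldown peak. The median odd scores were 4297 and 4225, the median widths 637 and 619.5 bp, and the median gaps to the nearest even peak 48.8 and 30.5 kb. The order of the gaps did not hold further down, with 37.5 and 40.6 kb among the 500 highest odd peaks. Of the 50, 44 had a listed pulldown peak on either side on their chromosome, and at each of the 44 at least 1 pulldown number was missing between those peaks (median 103), so whether an unlisted pulldown peak lay there cannot be told.

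The highest even-only pulldown peaks were at 180495977 to 180497078 on chromosome 2 (pulldown score 1759, even rank 2), at 107637761 to 107638241 on chromosome 10 (1696, even rank 42) and at 117127097 to 117127815 on chromosome 2 (1310, even rank 4). The one on chromosome 10 lay 73 bp from a pulldown peak with both partners (107637229 to 107637687), and both had the same even peak as their partner. Its class thus turned on an odd peak that ended 168 bp short of it.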
